A study of Mus musculus with 16 samples.

Results

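The inflammasome is covered here by 8 of the 24001 gene rows of a deposited RNA-seq table. They were taken by symbol: the sensors Nlrp3, Aim2, Mefv and Nlrc4, the adaptor Pycard, the proteases Casp1 and Casp4, and the pore-forming effector Gsdmd. All 8 were present, and all 8 passed the filter on low values, so none was left out of the tests. Bone marrow was taken from NZM2410 mice, which develop a lupus-like disease, and grown for 7 days in GM-CSF at 20 ng/ml and IL-4 at 10 ng/ml to give dendritic cells. The cells then received loxoribine, an agonist of the receptor TLR7, together with CpG at 1 μg/ml, an agonist of TLR9, or vehicle, for 24 h. There were 8 groups of 2 libraries, an agonist and a vehicle group in each of 4 arms that the source labels call ERKO NULL OVX, ERKO Shrt OVX, ERKO Shrt and WT. ERKO stands for altered Esr1, the gene of estrogen receptor alpha, "Shrt" for a truncated form of the receptor and "NULL" for its loss. Mice of both OVX arms had their ovaries removed at 4 to 8 weeks of age and carried a 0.25 mg, 90-day estradiol pellet, and mice of the ERKO Shrt and WT arms had no surgery.

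Inflammasomes are multiprotein platforms that form in the cytosol of myeloid cells. NLRP3 responds to ionic and membrane stress, AIM2 binds cytosolic double-stranded DNA, pyrin (from Mefv) responds to certain bacterial toxins, and NLRC4 is engaged through NAIP proteins that bind bacterial flagellin and secretion system parts. Most sensors recruit caspase 1 through the adaptor ASC (from Pycard), and caspase 1 cleaves pro-interleukin-1 beta, pro-interleukin-18 and gasdermin D, whose freed end opens pores in the cell membrane. Mouse caspase 11, the product of Casp4, binds lipopolysaccharide in the cytosol and also cleaves gasdermin D. Toll-like receptor signals are known to raise transcription of Nlrp3 and Il1b, a step called priming, and platform assembly itself is not measured by RNA.

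The labels disagree on the alleles. Groups follow the source labels, but the genotype labels give the null allele Esr1(tm4.2Ksk) for the vehicle libraries of ERKO Shrt OVX and ERKO Shrt, the short allele Esr1(tm1Ksk) for the agonist libraries of the same arms, and the short allele for all ERKO NULL OVX libraries. Values summed per gene do not separate these alleles, and by the genotype labels the agonist and vehicle libraries of ERKO Shrt OVX and of ERKO Shrt would also differ in allele. Esr1 itself had 0.364 and 0.317 FPKM (fragments per kilobase of transcript, scaled to library total) in agonist ERKO NULL OVX libraries, 1.12 and 1.16 FPKM in agonist ERKO Shrt OVX libraries, 2.01 and 1.77 FPKM in agonist ERKO Shrt libraries, and 0.937 and 0.684 FPKM in agonist WT libraries. The vehicle libraries had 0.347 and 0.283 FPKM in ERKO NULL OVX, 1.02 and 0.982 FPKM in ERKO Shrt OVX, 2.47 and 2.57 FPKM in ERKO Shrt, and 1.21 and 1.38 FPKM in WT. Every ERKO NULL OVX library was below, and every ERKO Shrt library above, all libraries of WT and ERKO Shrt OVX, whose ranges overlapped.

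Estimated depth was 17.65 to 23.65 M fragments per OVX library, against 36.35 to 43.45 M per unoperated one. These estimates are rough, and the labels give a minimum of 50 M reads per library. The sampling variance below rests on the estimates. The paired libraries of each OVX group differed by about the sampling noise (median variance between them 1.03 to 1.43 times the sampling variance, against 3.30 to 9.62 in unoperated groups), so each OVX pair was averaged and counted as 1 sample. These medians rest on only 43 to 75 genes per group, those with 1 transcript and at least 5000 estimated fragments in both libraries. No label states that paired libraries stem from different mice or cultures. The p-values therefore reflect only the spread within the 4 unoperated pairs, which may be technical, and OVX groups are assumed to vary like them. Markers of other cells moved with the arms. Summed over 8 macrophage markers, each at 1 FPKM or more in every group, agonist libraries had 2112 to 2141 FPKM in ERKO NULL OVX, 671 to 678 FPKM in ERKO Shrt OVX, 147 to 157 FPKM in ERKO Shrt and 668 to 689 FPKM in WT. Over 10 neutrophil and precursor markers the agonist sums were 299.9 to 310.2 FPKM, 1154 to 1160 FPKM, 118.5 to 119.8 FPKM and 84.1 to 87.5 FPKM in the same order of arms, with Retnlg at 0 in both OVX arms. The 6 mast cell and basophil markers summed to 34.1 to 115.6 FPKM over the OVX libraries, against 0.0401 to 0.308 FPKM over the unoperated ones. The 8 dendritic cell markers summed to 8295 to 10664 FPKM in OVX libraries, against 5233 to 6625 FPKM in unoperated ones, and 7 and 8 of them were at 1 FPKM or more. Group means of H2-Ab1 and Cd74 were higher in OVX groups (1196 to 1942 and 6461 to 8403 FPKM, against 213 to 297 and 3633 to 4203 FPKM), those of Zbtb46 and Ccr7 were lower (2.76 to 4.42 and 207 to 505 FPKM, against 13.4 to 26.8 and 1122 to 2177 FPKM), and those of Itgax ranged from 86.2 to 153.6 FPKM over all groups. T, B and erythroid marker sums reached at most 7.72, 1.58 and 1.19 FPKM in any library. The part of other cells in the results below was not tested, and in bulk RNA fewer cells of a type and less RNA per cell cannot be told apart.

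Across the 8 groups the proteases and Gsdmd were the most abundant members. Group means ran from 51.0 to 163.6 FPKM for Casp1, 68.7 to 108.9 FPKM for Gsdmd, 22.0 to 78.3 FPKM for Casp4 and 17.5 to 56.6 FPKM for Pycard. The sensors were lower, at 12.8 to 20.5 FPKM for Aim2, 3.54 to 15.5 FPKM for Nlrp3, 4.01 to 8.08 FPKM for Nlrc4 and 1.52 to 11.3 FPKM for Mefv. Mefv spread most, with a highest group mean 7.40 times its lowest, then Nlrp3 (4.39 times) and Casp4 (3.55 times), and Gsdmd (1.58 times) and Aim2 (1.60 times) spread least. Mefv in vehicle WT rested on an estimated 183 fragments in its lowest library, and Nlrp3 in agonist ERKO NULL OVX on 258, which gives counting errors of about 7.38% and 6.22%.

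**Figure D1:**
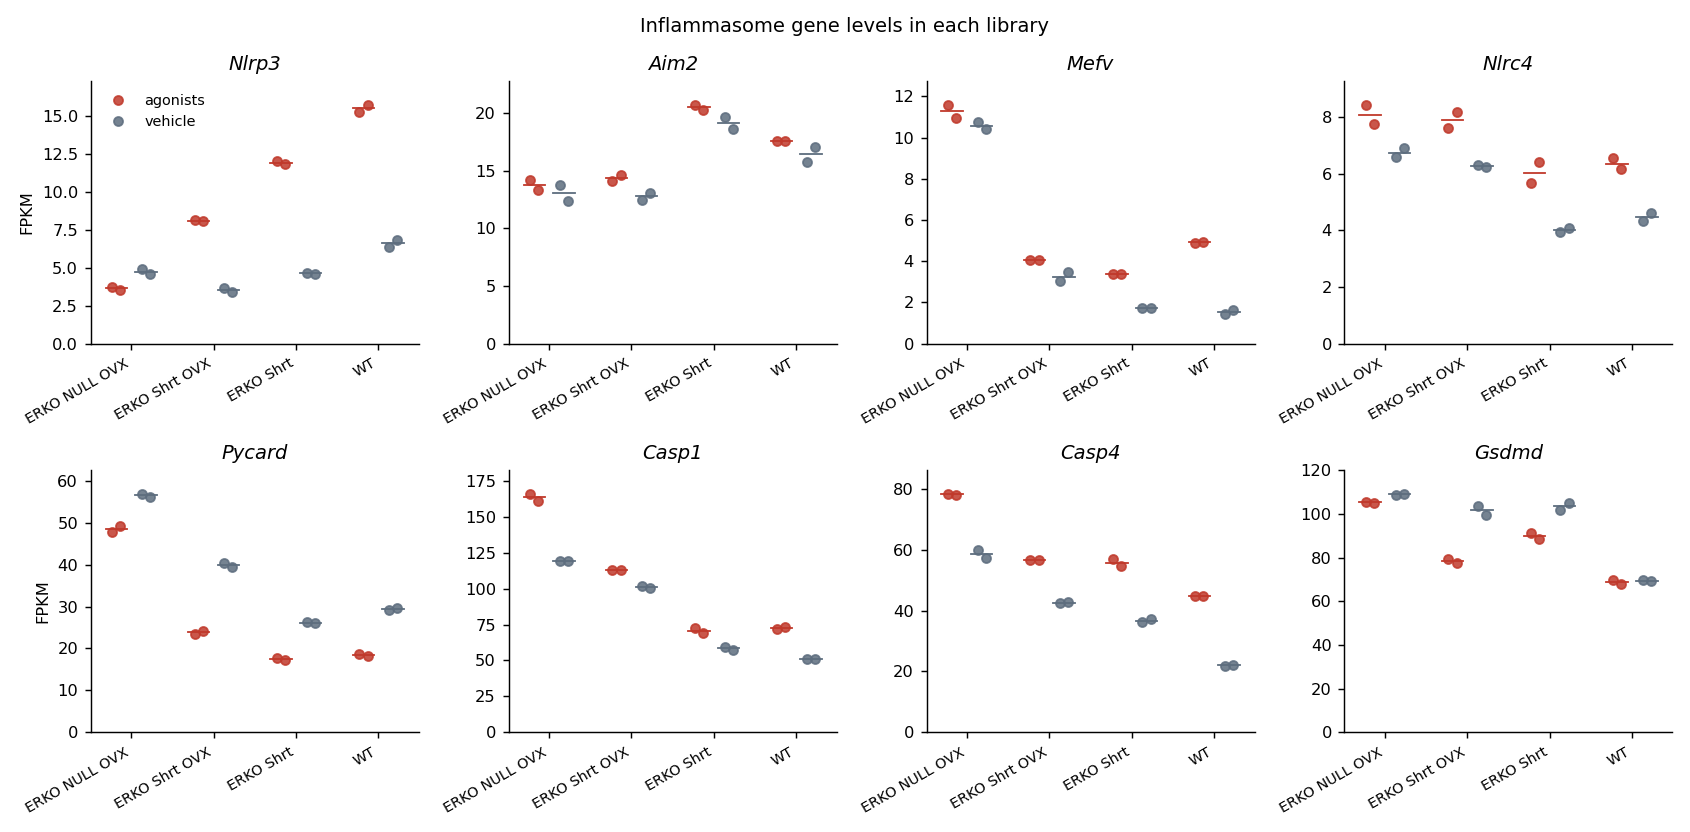
FPKM of the 8 inflammasome genes in each of 16 libraries, with each panel starting at 0. Points are libraries (red, agonists; grey, vehicle) and short lines are group means. Nlrp3 agonist libraries lie above vehicle libraries in ERKO Shrt OVX, ERKO Shrt and WT and below them in ERKO NULL OVX, and Mefv is highest in ERKO NULL OVX.

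The promoters of 4 members are shown, those whose group means spread most, each as the 250 bases upstream of the RefSeq start (build GRCm38.p6, a C57BL/6J reference, not NZM2410). Capitals mark matches, on either strand, to an NF-kB-like pattern, GGG and CC parted by any 5 bases, named for the factor family that Toll-like receptors activate. The windows are chr11:59541319-59541568 on the plus strand for Nlrp3, chr16:3718125-3718374 on the minus strand for Mefv, chr9:5308599-5308848 on the plus strand for Casp4 and chr7:127993868-127994117 on the minus strand for Pycard.
Nlrp3: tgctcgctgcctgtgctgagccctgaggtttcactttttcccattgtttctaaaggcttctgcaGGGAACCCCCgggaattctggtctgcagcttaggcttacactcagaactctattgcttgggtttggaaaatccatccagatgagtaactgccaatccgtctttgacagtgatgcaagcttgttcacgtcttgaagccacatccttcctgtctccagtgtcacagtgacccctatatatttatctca
Mefv: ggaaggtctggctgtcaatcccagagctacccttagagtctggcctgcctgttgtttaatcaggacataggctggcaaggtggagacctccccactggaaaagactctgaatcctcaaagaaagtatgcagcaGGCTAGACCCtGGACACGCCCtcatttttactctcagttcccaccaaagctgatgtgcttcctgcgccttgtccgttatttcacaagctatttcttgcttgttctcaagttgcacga
Casp4: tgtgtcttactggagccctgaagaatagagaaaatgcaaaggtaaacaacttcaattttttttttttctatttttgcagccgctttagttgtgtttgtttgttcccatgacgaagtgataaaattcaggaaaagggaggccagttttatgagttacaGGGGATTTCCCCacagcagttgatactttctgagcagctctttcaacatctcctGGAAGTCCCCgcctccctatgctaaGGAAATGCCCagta
Pycard: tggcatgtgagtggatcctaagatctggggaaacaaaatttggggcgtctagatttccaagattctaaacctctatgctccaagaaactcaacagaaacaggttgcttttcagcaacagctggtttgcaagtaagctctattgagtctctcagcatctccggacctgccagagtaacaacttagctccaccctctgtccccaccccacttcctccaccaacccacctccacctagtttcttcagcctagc
The NF-kB-like pattern was found in 4 of the 7 members with a RefSeq promoter, Nlrp3, Mefv, Casp1 and Casp4, and in 45.8% of 32851 mouse promoters of the same length. Casp4 held 5 matches, 3 of which overlap within one stretch, Mefv held 2, Nlrp3 and Casp1 held 1 each, and Pycard, Aim2 and Nlrc4 held none. The interferon-type pattern, GAAA and GAAA parted by any 2 bases, was in none of the 7 and in 2.98% of all promoters. Casp1 and Casp4 lie next to each other on chromosome 9, 1562 bases apart and on the same strand (GENCODE, GRCm38, Casp1 at 5298517-5307265 and Casp4 at 5308828-5336783).

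Agonists changed 5 of the 8 genes in ERKO NULL OVX (3 rose, 2 fell), 7 in ERKO Shrt OVX (5 rose, 2 fell), 7 in ERKO Shrt (5 rose, 2 fell) and 6 in WT (5 rose, 1 fell). A change is a limma adjusted p under 0.05 over all tested genes, and the background is the share of all tested genes that passed. In ERKO NULL OVX 19.1% of all genes rose and 18.2% fell (37.3% in either direction), and in ERKO Shrt OVX 18.4% rose and 19.2% fell (37.5%). In ERKO Shrt 25.9% rose and 25.3% fell (51.3%), and in WT 30.8% rose and 27.1% fell (57.9%). Casp1, Casp4 and Nlrc4 rose and Pycard fell in every arm. Nlrp3 rose in all arms but ERKO NULL OVX, where it fell. The median log2 fold change of the 8 was 0.080, 0.20, 0.38 and 0.46 from ERKO NULL OVX to WT, against 0.0075, 0.0039, 0.0072 and 0.021 for all tested genes. Of all genes that passed, 51.1% in ERKO NULL OVX, 48.9% in ERKO Shrt OVX, 50.6% in ERKO Shrt and 53.3% in WT were higher with agonists. After libraries were rescaled to equal sums these shares were 33.7%, 70.5%, 46.4% and 32.4%.

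**Figure D2:**
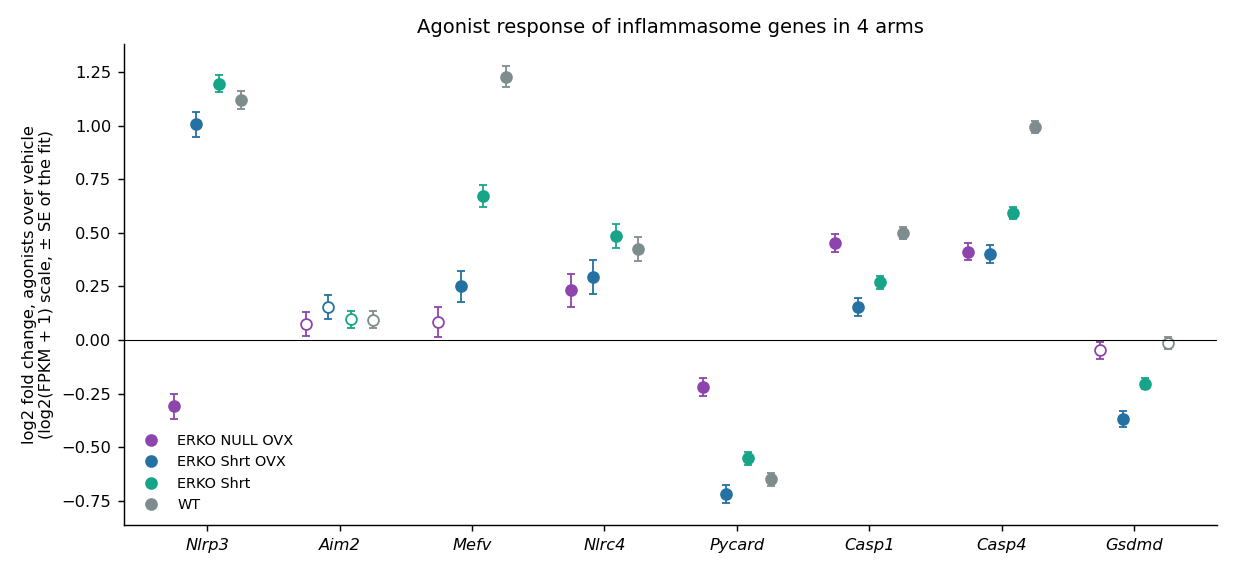
Agonist response of the 8 genes in the 4 arms, as log2 fold change of agonists over vehicle on the log2(FPKM + 1) scale with the standard error of the fit. Filled points passed an adjusted p of 0.05 and open points did not. Nlrp3 is at -0.31 in ERKO NULL OVX and at 1.01 to 1.20 in the other arms, and Pycard is below 0 in each arm.

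Nlrp3, the sensor whose transcription priming is known to raise, had 3.72 and 3.56 FPKM in agonist ERKO NULL OVX cells, against 4.89 and 4.61 FPKM in vehicle cells of that arm. In ERKO Shrt OVX it had 8.17 and 8.08 FPKM with agonists, against 3.70 and 3.39 FPKM with vehicle. Agonist libraries thus lay below vehicle libraries in the first arm and above them in the other, with no overlap in either. In ERKO Shrt the values were 12.03 and 11.86 FPKM with agonists, against 4.68 and 4.62 FPKM with vehicle. In WT they were 15.3 and 15.8 FPKM with agonists, against 6.39 and 6.84 FPKM with vehicle. Nlrp3 rose 2.29-fold in ERKO Shrt OVX, 2.57-fold in ERKO Shrt and 2.35-fold in WT (log2 fold changes 1.01 ± 0.057, 1.20 ± 0.040 and 1.12 ± 0.040, SE of the fit; adjusted p = 4.63e-06, 1.29e-08 and 1.26e-08). In ERKO NULL OVX it fell to 0.766 of the vehicle level (-0.31 ± 0.057, adjusted p = 0.00247), and this call held in 25 of 25 alternative analyses. The log2 value ran from -0.38 to -0.17 over these alternatives, and leaving out a library of another arm could not change it. Folds here and below are ratios of mean FPKM, and log2 values are on the log2(FPKM + 1) scale, so they do not match. The difference in response, ERKO NULL OVX minus ERKO Shrt OVX, was -1.32 ± 0.081 (adjusted p = 3.31e-05), rank 22 of 11344 genes by size, where 16.6% of all genes were higher and 14.7% lower (31.3% in either direction). Here 4 of the 8 members passed, with Nlrp3 lower and Pycard, Casp1 and Gsdmd higher. Of all genes that passed it, 53.1% were higher, and 21.5% after equal-sum rescaling, which put the median of all genes at -0.12.

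Between arms, Nlrp3 was lower in ERKO Shrt than in WT with agonists (-0.35 ± 0.040, adjusted p = 4.91e-05) and with vehicle (-0.43 ± 0.040, adjusted p = 9.87e-06). Its response did not pass the test of a difference between these arms (0.077 ± 0.057, adjusted p = 0.482). In ERKO NULL OVX against ERKO Shrt OVX, Nlrp3 was lower with agonists (-0.98 ± 0.057, adjusted p = 3.79e-07) and higher with vehicle (0.34 ± 0.057, adjusted p = 0.000668). The sign of the difference between the OVX arms therefore depended on the treatment. By rank of the group means, WT agonist was highest and ERKO Shrt OVX vehicle lowest, and the libraries of 2 neighbouring pairs in that order overlapped, ERKO NULL OVX vehicle with ERKO Shrt vehicle and ERKO NULL OVX agonist with ERKO Shrt OVX vehicle.

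Mefv, which encodes pyrin, had 11.6 and 11.0 FPKM in agonist ERKO NULL OVX cells, against 10.7 and 10.4 FPKM in vehicle cells. In ERKO Shrt OVX it had 4.06 and 4.04 FPKM with agonists, against 3.02 and 3.47 FPKM with vehicle. These pairs show a level in ERKO NULL OVX well above ERKO Shrt OVX under both treatments. In ERKO Shrt it had 3.36 and 3.36 FPKM with agonists, against 1.73 and 1.74 FPKM with vehicle, and in WT 4.88 and 4.94 FPKM with agonists, against 1.42 and 1.63 FPKM with vehicle. Mefv rose 3.22-fold in WT (log2 1.23 ± 0.050, adjusted p = 2.83e-08), 1.94-fold in ERKO Shrt (0.67 ± 0.050, adjusted p = 2.51e-06) and 1.25-fold in ERKO Shrt OVX (0.25 ± 0.071, adjusted p = 0.0209, but 0.0758 without vehicle replicate 1 of that arm, the highest of 25 alternatives from 0.0017). In ERKO NULL OVX the value was 0.085 ± 0.071 (adjusted p = 0.377). The log2(FPKM + 1) scale understates changes of low genes such as Mefv. Over 26 alternatives, among them other added values, the WT response ran from 0.60 to 1.63 and passed in all. The response was smaller in ERKO Shrt than in WT (difference -0.56 ± 0.071, adjusted p = 0.00177), and smaller in ERKO Shrt OVX than in ERKO Shrt (-0.42 ± 0.087, adjusted p = 0.00749). Mefv was 2.79-fold higher in ERKO NULL OVX than in ERKO Shrt OVX with agonists (1.28 ± 0.071, adjusted p = 2.61e-07) and 3.26-fold higher with vehicle (1.45 ± 0.071, adjusted p = 1.18e-07). Macrophage marker sums moved the same way between these arms (2141 and 2112 FPKM against 671 and 678 FPKM with agonists, 1649.5 and 1651 FPKM against 547 and 550.0 FPKM with vehicle). In the unoperated arms, where Mefv rose, agonist sums were higher in ERKO Shrt (147 and 157 FPKM, against 119 and 125 FPKM with vehicle) and lower in WT (689 and 668 FPKM, against 787 and 753 FPKM with vehicle).

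Nlrc4 rose with agonists in every arm. It had 8.42 and 7.74 FPKM with agonists in ERKO NULL OVX, against 6.58 and 6.89 FPKM with vehicle, and 7.61 and 8.19 FPKM with agonists in ERKO Shrt OVX, against 6.30 and 6.23 FPKM with vehicle. Agonist values were 5.67 and 6.39 FPKM in ERKO Shrt, against 3.95 and 4.08 FPKM with vehicle, and 6.54 and 6.15 FPKM in WT, against 4.34 and 4.59 FPKM with vehicle. No agonist library overlapped the vehicle libraries of its arm. The log2 fold changes were 0.23 ± 0.079 (adjusted p = 0.0435), 0.29 ± 0.079 (0.0164), 0.49 ± 0.056 (5.33e-05) and 0.43 ± 0.056 (0.000112) from ERKO NULL OVX to WT. The first of these did not pass in 10 of 25 alternatives (adjusted p 0.00379 to 0.111), among them without agonist replicate 1 (0.106) or vehicle replicate 1 (0.0683) of that arm, and without either vehicle library of ERKO Shrt (0.0586 and 0.0587) or WT (0.0548 and 0.0549). The call in ERKO Shrt OVX was lost with no filter on low values (0.0518). None of the 3 tests of a difference in response passed for Nlrc4, with values of 0.059, -0.062 and -0.19.

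Aim2, the DNA sensor, was the member whose agonist response passed in no arm. It had 14.2 and 13.4 FPKM with agonists in ERKO NULL OVX, against 13.7 and 12.3 FPKM with vehicle, and 14.1 and 14.6 FPKM with agonists in ERKO Shrt OVX, against 12.5 and 13.1 FPKM with vehicle. The unoperated arms stood higher, with 20.7 and 20.3 FPKM with agonists in ERKO Shrt, against 19.6 and 18.6 FPKM with vehicle, and 17.57 and 17.59 FPKM with agonists in WT, against 15.8 and 17.0 FPKM with vehicle. Its responses were 0.074, 0.15, 0.097 and 0.095 from ERKO NULL OVX to WT, and none passed (adjusted p 0.0606 to 0.344). The value in ERKO Shrt OVX passed in 7 of 25 alternatives (adjusted p 0.0132 to 0.136), among them without agonist replicate 1 of that arm (0.0348) or vehicle replicate 2 (0.0292), and without either WT vehicle library (0.0433 each). In ERKO Shrt it passed without either WT vehicle library (0.0482 and 0.0483), and in WT without vehicle replicate 2 (0.0226). Aim2 was higher in ERKO Shrt than in WT by 0.21 ± 0.041 under both treatments (adjusted p = 0.00158 with agonists and 0.00146 with vehicle).

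Pycard, the adaptor ASC, fell with agonists in all arms, against the direction of Casp1, whose product it recruits. Agonist libraries had 47.7 and 49.2 FPKM in ERKO NULL OVX, against 56.9 and 56.2 FPKM with vehicle, and 23.4 and 24.3 FPKM in ERKO Shrt OVX, against 40.3 and 39.4 FPKM with vehicle. They had 17.8 and 17.2 FPKM in ERKO Shrt, against 26.3 and 26.0 FPKM with vehicle, and 18.7 and 18.1 FPKM in WT, against 29.2 and 29.6 FPKM with vehicle. The groups did not overlap in any arm. The agonist level was 0.856 of vehicle in ERKO NULL OVX (log2 -0.22 ± 0.043, adjusted p = 0.00322), 0.598 in ERKO Shrt OVX (-0.72 ± 0.043, 5.67e-06), 0.67 in ERKO Shrt (-0.55 ± 0.030, 2.73e-07) and 0.625 in WT (-0.65 ± 0.030, 6.6e-08). The fall was smaller in ERKO NULL OVX than in ERKO Shrt OVX (difference 0.50 ± 0.060, adjusted p = 0.000462). Pycard was 2.03-fold higher in ERKO NULL OVX than in ERKO Shrt OVX with agonists (0.99 ± 0.043, adjusted p = 4.81e-08) and 1.42-fold higher with vehicle (0.49 ± 0.043, adjusted p = 6.36e-06).

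Casp1 rose in all arms. It had 166 and 161 FPKM with agonists in ERKO NULL OVX, against 119.4 and 118.9 FPKM with vehicle, and 112.7 and 112.8 FPKM with agonists in ERKO Shrt OVX, against 102 and 101 FPKM with vehicle. In ERKO Shrt it had 72.5 and 69.0 FPKM with agonists, against 59.6 and 57.4 FPKM with vehicle, and in WT 71.9 and 73.1 FPKM with agonists, against 50.7 and 51.3 FPKM with vehicle. Every OVX library stood above every unoperated library. The responses were 0.45 ± 0.042 (adjusted p = 4.38e-05), 0.15 ± 0.042 (0.0186), 0.27 ± 0.030 (4.36e-05) and 0.50 ± 0.030 (4.11e-07) from ERKO NULL OVX to WT. The response was larger in ERKO NULL OVX than in ERKO Shrt OVX (difference 0.30 ± 0.060, adjusted p = 0.00514), a call lost on equal-sum rescaling (0.0697) and on quantile normalization (0.131) and kept in 23 of 25 alternatives. It was smaller in ERKO Shrt than in WT (-0.23 ± 0.042, adjusted p = 0.0117), a call lost in 4 of 26 alternatives (adjusted p 0.00102 to 0.0598), among them without vehicle replicate 1 of ERKO Shrt (0.0504) or of WT (0.0551).

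Casp4, which encodes caspase 11, rose in all arms as well. Agonist libraries had 78.5 and 78.2 FPKM in ERKO NULL OVX, against 59.9 and 57.3 FPKM with vehicle, and 56.64 and 56.61 FPKM in ERKO Shrt OVX, against 42.4 and 42.8 FPKM with vehicle. They had 57.1 and 54.6 FPKM in ERKO Shrt, against 36.3 and 37.2 FPKM with vehicle, and 44.8 and 44.9 FPKM in WT, against 21.8 and 22.3 FPKM with vehicle. WT vehicle was thus the lowest group and gave the largest Casp4 response of the 4 arms, 2.04-fold (log2 0.99 ± 0.029, adjusted p = 3.08e-09). The others were 0.41 ± 0.041 (6.78e-05) in ERKO NULL OVX, 0.40 ± 0.041 (9.95e-05) in ERKO Shrt OVX and 0.59 ± 0.029 (1.4e-07) in ERKO Shrt. The response was smaller in ERKO Shrt than in WT (difference -0.40 ± 0.041, adjusted p = 0.00055, rank 210 of 11343 genes by size). Between the OVX arms the difference was 0.0098 ± 0.058 (adjusted p = 0.915). Casp4 was 1.24-fold higher in ERKO Shrt than in WT with agonists (0.31 ± 0.029, adjusted p = 1.28e-05) and 1.67-fold higher with vehicle (0.71 ± 0.029, adjusted p = 3.66e-08).

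Gsdmd, the pore former, did not rise in any arm. It had 105.4 and 105.1 FPKM with agonists in ERKO NULL OVX, against 108.5 and 109.3 FPKM with vehicle, and 79.2 and 77.7 FPKM with agonists in ERKO Shrt OVX, against 103.6 and 99.7 FPKM with vehicle. ERKO Shrt had 91.1 and 88.3 FPKM with agonists, against 101.7 and 105.2 FPKM with vehicle, and WT had 69.5 and 68.0 FPKM with agonists, against 69.8 and 69.1 FPKM with vehicle. Only the WT agonist and vehicle libraries overlapped. Gsdmd fell in ERKO Shrt OVX (-0.37 ± 0.038, adjusted p = 0.000103) and in ERKO Shrt (-0.20 ± 0.027, adjusted p = 0.000147), and the values were -0.049 (adjusted p = 0.348) in ERKO NULL OVX and -0.014 (adjusted p = 0.671) in WT. Quantile normalization called the last pair lower (-0.12, adjusted p = 0.0403, in ERKO NULL OVX and -0.083, adjusted p = 0.030, in WT), and equal-sum rescaling did so in WT (-0.11, adjusted p = 0.00604). Gsdmd was 1.30-fold higher in ERKO Shrt than in WT with agonists (0.38 ± 0.027, adjusted p = 1.72e-06) and 1.49-fold higher with vehicle (0.57 ± 0.027, adjusted p = 9.35e-08).

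In ERKO Shrt against WT, 5 of the 8 genes passed with agonists (3 higher, 2 lower) and 6 with vehicle (4 higher, 2 lower), where 27.2% of all genes were higher and 27.6% lower with agonists (54.8% in either direction), and 31.5% higher and 28.7% lower with vehicle (60.3%). Aim2, Casp4 and Gsdmd were higher and Nlrp3 was lower under both treatments. Mefv was lower with agonists (-0.44 ± 0.050, adjusted p = 4.86e-05), against 0.12 with vehicle (adjusted p = 0.0681, but 0.16 and 0.0357 after equal-sum rescaling). Casp1 was higher (0.19 ± 0.030, adjusted p = 0.000317) and Pycard lower (-0.16 ± 0.030, adjusted p = 0.000966) with vehicle, and their agonist values were -0.035 and -0.068 (adjusted p = 0.347 and 0.0831). With agonists 49.6% of all genes that passed were higher, and 71.3% after equal-sum rescaling. In all, 4 responses were lower in ERKO Shrt than in WT and none was higher, those of Mefv, Casp1, Casp4 and Gsdmd (-0.19 ± 0.038, adjusted p = 0.0169), where 2.31% of all genes were higher and 4.68% lower (6.99% in either direction). After equal-sum rescaling 3 members passed, Mefv and Casp4 as lower and Pycard as higher (0.17, adjusted p = 0.0408), while Casp1 (-0.16, 0.0598) and Gsdmd (-0.11, 0.0900) did not. Of all genes that passed 33% were higher, against 75% after rescaling and 45.7% after quantile normalization. Leaving out 1 library brought the 4 to as few as 2, without WT vehicle replicate 1, where Casp1 (0.0551) and Gsdmd (0.0594) did not pass. The Gsdmd difference also did not pass without WT vehicle replicate 2 (0.0754), WT agonist replicate 1 (0.0598), ERKO Shrt vehicle replicate 2 (0.0644) or ERKO Shrt agonist replicate 2 (0.0519).

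**Figure D3:**
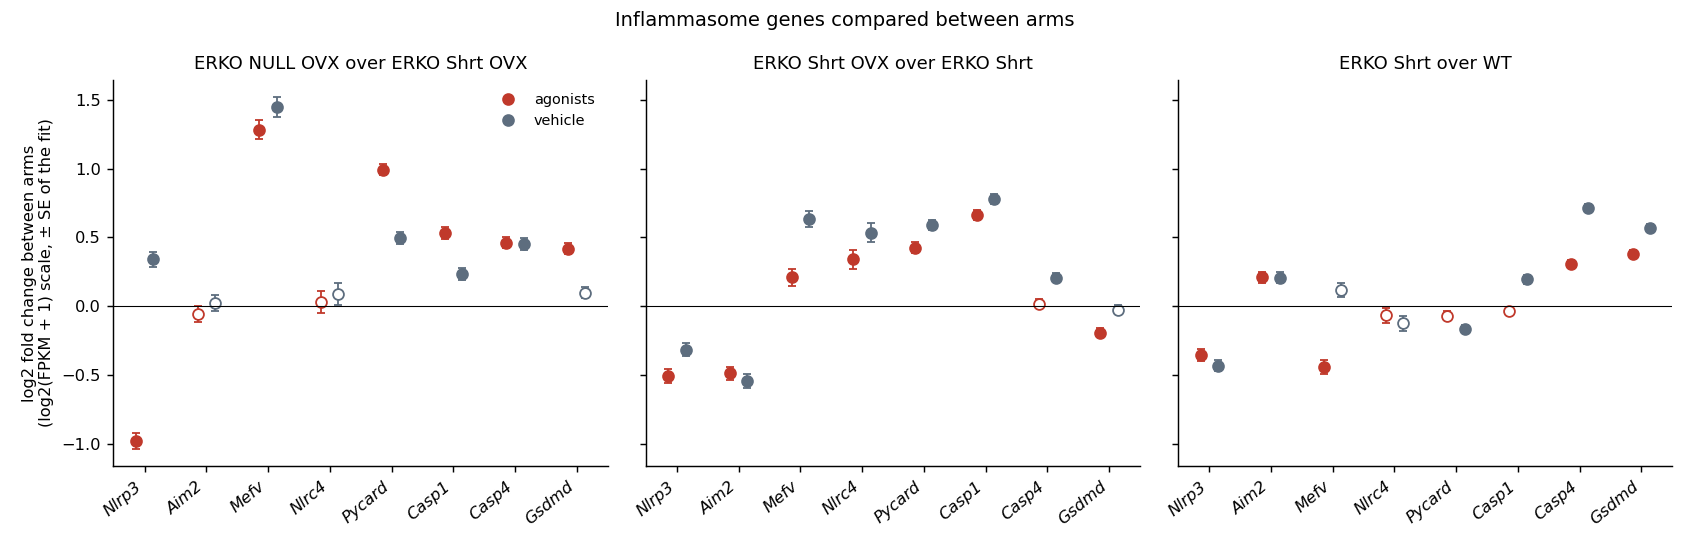
Log2 fold change of the 8 genes between arms, left group over right group in each panel title, on the log2(FPKM + 1) scale with the standard error of the fit (red, agonists; grey, vehicle). Filled points passed an adjusted p of 0.05 and open points did not. Nlrp3 in ERKO NULL OVX over ERKO Shrt OVX is at -0.98 with agonists and at 0.34 with vehicle, while Mefv is at 1.28 and 1.45.

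In ERKO NULL OVX against ERKO Shrt OVX, 6 genes passed with agonists (5 higher, 1 lower) and 5 with vehicle (all higher), where 32.1% of all genes were higher and 30.6% lower with agonists (62.8% in either direction), and 29.2% higher and 26% lower with vehicle (55.2%). Pycard, Mefv, Casp1 and Casp4 were higher under both treatments. The values were 0.53 ± 0.042 with agonists and 0.23 ± 0.042 with vehicle for Casp1 (adjusted p = 3.31e-06 and 0.00114), and 0.46 ± 0.041 and 0.45 ± 0.041 for Casp4 (7.49e-06 and 9.7e-06). Gsdmd was higher with agonists (0.42 ± 0.038, adjusted p = 8.29e-06), against 0.099 ± 0.038 with vehicle (adjusted p = 0.0501, 0.00272 to 0.171 over 25 alternatives, of which 13 passed, and 0.0177 without ERKO Shrt OVX vehicle replicate 1). The agonist response of Gsdmd was less negative in ERKO NULL OVX than in ERKO Shrt OVX (difference 0.32 ± 0.054, adjusted p = 0.00221). Aim2 and Nlrc4 did not pass, with agonist values of -0.055 and 0.029 and vehicle values of 0.025 and 0.091, but Aim2 with agonists was called lower after equal-sum rescaling (-0.21, adjusted p = 0.0135). With agonists 51.2% of all genes that passed were higher, and 30.6% after equal-sum rescaling, which put the median of all genes at -0.13. Neutrophil and precursor marker sums ran the other way, at 299.9 to 314.6 FPKM in ERKO NULL OVX and 1154 to 1312 FPKM in ERKO Shrt OVX. S100a8 (182 against 821 FPKM with agonists) and S100a9 (57.4 against 253 FPKM) made up most of them. Prtn3 (8.66 against 5.21 FPKM with agonists) and Ltf (1.05 against 0.894 FPKM) were higher in ERKO NULL OVX, also with vehicle. Retnlg was at 0 and the others were lower.

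ERKO Shrt OVX against ERKO Shrt compares arms of the same source label that differ in surgery, estradiol pellet, depth and other-cell markers, which cannot be told apart. With agonists 7 genes passed (4 higher, 3 lower) and with vehicle 7 (5 higher, 2 lower), where 40.1% of all genes were higher and 38.5% lower with agonists (78.7% in either direction), and 41% higher and 39.9% lower with vehicle (80.9%). The members' share is near that background. Casp1 was higher by 0.67 ± 0.037 with agonists and 0.78 ± 0.037 with vehicle, and the other genes higher under both treatments were Mefv (0.21 and 0.63, but -0.040 with agonists after equal-sum rescaling), Pycard (0.43 and 0.59) and Nlrc4 (0.34 and 0.53, but 0.072 with agonists after rescaling, adjusted p = 0.376). Aim2 (-0.49 and -0.54) and Nlrp3 (-0.50 and -0.31) were lower under both treatments. Casp4 had 0.020 with agonists (adjusted p = 0.623) and 0.21 with vehicle (adjusted p = 0.000345), and on equal-sum rescaling -0.29 and -0.19. Gsdmd had -0.19 with agonists (adjusted p = 0.000404) and -0.025 with vehicle (adjusted p = 0.502), but the vehicle value was called at -0.43 on equal-sum rescaling (adjusted p = 4.98e-07) and -0.38 on quantile normalization (adjusted p = 3.68e-06). Equal-sum rescaling put the median of all genes at -0.27 with agonists and -0.36 with vehicle, against 0.014 and 0.0096 on the deposited scale. The share of higher genes among those that passed was 26.5% and 22.5% after rescaling, against 51% and 50.7%. Relative to that median the rescaled values were 0.63 and 0.74 for Casp1, 0.23 and 0.76 for Mefv, 0.40 and 0.56 for Pycard, 0.34 and 0.57 for Nlrc4, -0.019 and 0.17 for Casp4, -0.23 and -0.071 for Gsdmd, -0.55 and -0.34 for Nlrp3, and -0.53 and -0.59 for Aim2. In all, 4 agonist responses were lower in ERKO Shrt OVX than in ERKO Shrt, those of Mefv (-0.42), Pycard (-0.17 ± 0.052, adjusted p = 0.0456), Casp4 (-0.19 ± 0.051, 0.0242) and Gsdmd (-0.17 ± 0.047, 0.030), where 11.4% of all genes were higher and 12.4% lower (23.8% in either direction). Leaving out 1 library gave 1 to 5 such calls, with 1 without agonist replicate 1 or without vehicle replicate 1 of ERKO Shrt and 2 without vehicle replicate 1 of ERKO Shrt OVX or either vehicle library of WT. The Mefv difference passed in all 25 alternatives. That of Pycard did not pass in 14 (adjusted p up to 0.436), that of Gsdmd in 8 and that of Casp4 in 3. Of all genes that passed, 47.8% were higher, against 76% after equal-sum rescaling.

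The other inflammasome genes moved in both directions. Of 38 listed, 34 could be tested, and Nlrp1a, Nlrp6, Nlrp12 and Casp12 stayed below the filter. Agonists raised 10 and lowered 9 in ERKO NULL OVX, raised 4 and lowered 8 in ERKO Shrt OVX, raised 7 and lowered 14 in ERKO Shrt, and raised 9 and lowered 16 in WT, beside the shares of all genes given above. Il1b, which encodes the cytokine precursor that caspase 1 cleaves, had 856 and 846 FPKM with agonists in ERKO NULL OVX, against 365 and 367 FPKM with vehicle, and 2293 and 2305 FPKM in ERKO Shrt OVX, against 912 and 908 FPKM. It had 1111 and 1078 FPKM with agonists in ERKO Shrt, against 113 and 108 FPKM with vehicle, and 702 and 682 FPKM in WT, against 31.0 and 42.7 FPKM. Il1b therefore rose in ERKO NULL OVX, the arm in which Nlrp3 fell (1.22 ± 0.21, adjusted p = 0.00972), and the OVX responses did not pass a test of difference (-0.12 ± 0.29, adjusted p = 0.795). In ERKO Shrt OVX Il1b rose less than in ERKO Shrt (difference -1.96 ± 0.25, adjusted p = 0.00667), from a vehicle level 3.03 higher on the log2 scale. Il18, the other caspase 1 substrate, fell in ERKO Shrt (-0.68) and WT (-0.67), and had -0.28 (adjusted p = 0.0542) in ERKO NULL OVX and -0.16 (adjusted p = 0.238) in ERKO Shrt OVX.

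Among the genes that license or restrain the platforms, the guanylate-binding proteins, which open the way to caspase 11 at bacterial membranes, rose in every arm. Gbp2 rose by 0.61, 0.38, 0.97 and 1.07 and Gbp5 by 0.43, 0.42, 1.25 and 1.31 from ERKO NULL OVX to WT, and Gbp3 rose by 0.66 in ERKO NULL OVX and 0.16 in ERKO Shrt OVX, a difference of 0.50 ± 0.067 (adjusted p = 0.000782). Txnip, a redox protein reported to bind NLRP3, fell in ERKO NULL OVX (-0.59), ERKO Shrt (-0.45) and WT (-0.52), and had -0.079 in ERKO Shrt OVX (adjusted p = 0.115). Its response differed between the OVX arms (-0.51 ± 0.052, adjusted p = 0.000197), as did that of Irf2, a transcription factor known to drive Gsdmd (-0.44 ± 0.071, adjusted p = 0.00185). Serpinb1a, an inhibitor of neutrophil proteases that also restrains caspases, showed the largest difference of the list between ERKO Shrt and WT. It averaged 60.7 FPKM in ERKO Shrt against 12.5 FPKM in WT with agonists and 86.2 FPKM against 12.7 FPKM with vehicle (2.19 ± 0.033 and 2.67 ± 0.033, adjusted p = 4.4e-11 and 1.1e-11), and 10.2 FPKM in ERKO NULL OVX against 38.2 FPKM in ERKO Shrt OVX with agonists. Its response was lower in ERKO Shrt than in WT (-0.48 ± 0.047), as were those of Naip2 (-0.32 ± 0.041), a sensor partner of NLRC4, and Gsdme (-0.28 ± 0.063), another gasdermin (adjusted p = 0.000426, 0.00177 and 0.0270). Pydc3 and Pydc4, pyrin-domain genes, were higher in ERKO NULL OVX than in ERKO Shrt OVX by 2.10 and 2.49 with agonists and 1.71 and 2.14 with vehicle. Both have near-identical relatives, as Serpinb1a and the Naip genes do, so their values are uncertain. Il18bp, which binds and blocks interleukin-18, was lower in ERKO Shrt than in WT (-1.11 with agonists, -1.08 with vehicle) and higher in ERKO Shrt OVX than in ERKO Shrt (2.27 and 2.13). Panx1, a membrane channel for ATP, was lower in ERKO Shrt than in WT with agonists (-1.12 ± 0.029) and higher in ERKO Shrt OVX than in ERKO Shrt (1.47 ± 0.036).

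**Figure D4:**
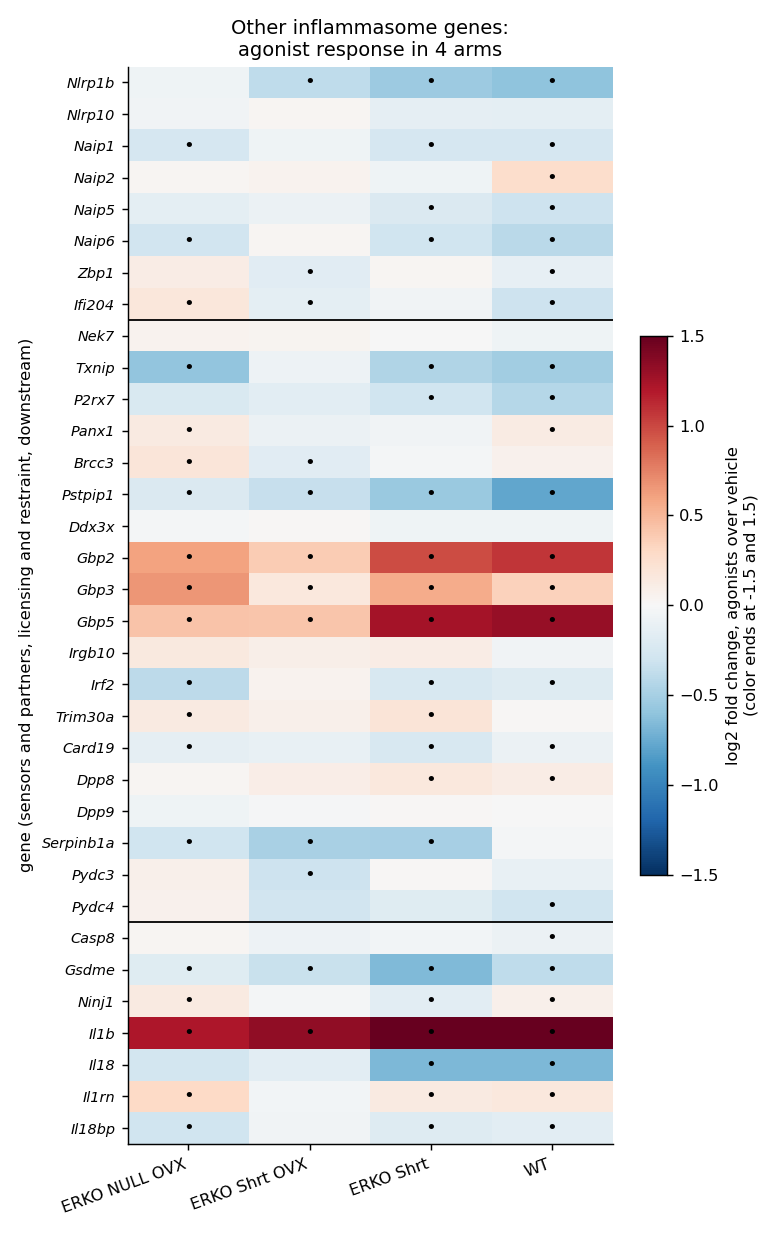
Agonist response of 34 other inflammasome genes in the 4 arms, as log2 fold change of agonists over vehicle on the log2(FPKM + 1) scale (red, higher with agonists; blue, lower). Dots mark an adjusted p under 0.05, and black lines part the 3 lists. Il1b, Gbp2, Gbp3 and Gbp5 are higher in each arm, and the color of Il1b ends at 1.5 while its values in ERKO Shrt and WT are 3.30 and 4.21.

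Over the 8 group means, the members whose means span over 1 log2 unit were compared with 3955 genes whose own means do so. Aim2 (span 0.64), Nlrc4 (0.86) and Gsdmd (0.66) did not reach that span and were not compared with them. The nearest profiles, by root mean square distance of centred log2(FPKM + 1) values, were Gna15 (0.099) and Pwwp2b (0.11) for Pycard, Rac2 (0.097) and Slfn2 (0.097) for Casp1, Ticam2 (0.12) and Gypc (0.17) for Casp4, Fyb (0.19) and Gp6 (0.26) for Mefv, and Gm14023 (0.28) and Zfp658 (0.29) for Nlrp3. No profile came as close to Nlrp3 as those nearest to Casp1 or Pycard did to them. Among the members themselves the smallest distance was between Casp1 and Casp4 (0.29, Pearson r = 0.849 over 8 group means). Nlrc4 was nearly as close to Casp1 (0.31, r = 0.884) and to Casp4 (0.31, r = 0.828). Mefv and Casp1 lay farther apart (0.43) with r = 0.864. The farthest pair was Nlrp3 and Pycard (1.16, r = -0.846). These values describe 8 means of 2 libraries each that share arms, depth and cell makeup.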

How the data were processed

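RNA of bone marrow-derived dendritic cells was sequenced, paired-end, after TruSeq preparation, per the labels' protocols. The authors deposited a table of FPKM values for 24001 gene rows and 16 libraries. Per the submitters' processing notes, cutadapt, FastQC, STAR, HTSeq, DESeq2 and build mm10 are named (no versions), with the FPKM program not given in the sources used here. Division by gene length and library total removes the counts, and deposited FPKM sums were 481738 to 522287 in unoperated and 612322 to 696321 in OVX libraries. A rough depth came from the spacing of low FPKM values in 2955 genes with 1 transcript; the table does not give whole reads for nearly all genes, so no count test was run. In 5 cases a 0 in an otherwise expressed gene was taken as missing and 1242 small RNA rows removed. Genes with at least 1 FPKM in 2 libraries (11344) were tested with limma 3.58.1 in R 4.3.3 (trend, robust) on log2(FPKM + 1), which understates changes of low genes; 12 samples, 4 residual degrees of freedom, Benjamini-Hochberg adjustment over all tested genes in each of 13 comparisons, after a test on simulated data. ± gives the standard error of the fit. Comparisons of arms with agonists and with vehicle and their responses share samples. All 8 members are named, with the 3 listed pathway genes that passed by the largest size in each comparison, Esr1, Il1b, Il18 and the 2 nearest profiles of members whose means span over 1 log2 unit. Alternatives were other added values, no filter, equal sums, quantile normalization, 16 libraries as samples, a replicate block, no robust option and each library left out. The members, lists and alternatives were chosen with earlier results of these data known.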

Additional observations from a re-analysis of the deposited data

Results flagged for a closer look

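The agonist response of several members differed between arms by a test of the difference itself, which is what flagged them. In ERKO NULL OVX minus ERKO Shrt OVX, the differences were -1.32 for Nlrp3, 0.50 for Pycard, 0.30 for Casp1 and 0.32 for Gsdmd on the log2 scale. In ERKO Shrt minus WT they were -0.56 for Mefv, -0.40 for Casp4, -0.23 for Casp1 and -0.19 for Gsdmd. In ERKO Shrt OVX minus ERKO Shrt they were -0.42 for Mefv, -0.19 for Casp4, -0.17 for Pycard and -0.17 for Gsdmd. Some of these calls were lost in part of the alternatives. They were Casp1 in the first comparison, Casp1 and Gsdmd in the second, and Casp4, Pycard and Gsdmd in the third. The genotype labels name different Esr1 alleles for the agonist and vehicle libraries of ERKO Shrt OVX and ERKO Shrt, and the part of this in the differences was not tested.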

How the results depend on the processing

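Across 25 or 26 alternatives per comparison, 2542 of the members' values kept their side of the threshold, 51 were no longer past it, 42 came past it and 5 reversed. Of the 2542, 23 took the other sign, and in all of these the value was not past the threshold. The count of members with a different response in ERKO Shrt minus WT was 2 with no filter on low values, 3 on equal-sum rescaling (1 higher, 2 lower) and 2 to 4 leaving out 1 library, against 4. In ERKO Shrt OVX minus ERKO Shrt it was 2 with no filter, 1 on equal-sum rescaling and 1 to 5 leaving out 1 library, against 4. With no filter more genes enter both the fit and the adjustment. Each library was left out in turn for every comparison, also libraries of groups outside it. The log2 value then cannot change, and only the estimated spread and the adjustment differ. An OVX group that loses 1 library keeps its near-identical pair. Many of the alternatives in which a value kept its side are therefore weak checks. The cause of these changes in count was not tested. On equal-sum rescaling, ERKO Shrt OVX against ERKO Shrt reversed for Mefv (-0.0403) and Casp4 (-0.29) with agonists and for Casp4 (-0.19) and Il18 (-0.24) with vehicle. On quantile normalization it reversed for Casp4 with agonists (-0.13), and the Gsdmd response difference of these arms became 0.00103. Libraries with equal numbers did not deviate together (r -0.073 to 0.054 over 28 pairs of groups, and also over the 6 pairs of unoperated groups). Paired OVX libraries differed by about the sampling noise, and the spread of unoperated pairs may be technical. These r values therefore cannot decide whether equal numbers share a mouse or culture. With the replicate number as a block (12 samples) the Pycard response difference of these arms, -0.17, did not pass (adjusted p = 0.0556), and no other member's call was lost in either blocked fit. Blocked over 16 libraries, 4 more members' values passed: Gsdmd between OVX arms with vehicle (0.099, adjusted p = 0.00286), the Aim2 response in ERKO Shrt OVX (0.15, adjusted p = 0.0225), and the response differences of ERKO Shrt OVX minus ERKO Shrt for Nlrp3 (-0.19, adjusted p = 0.0407) and Casp1 (-0.12, adjusted p = 0.0221). Precision is limited by 2 libraries per group and by about 183 to 258 fragments for the lowest Mefv and Nlrp3 values.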
